A study of Mus musculus with 10 samples.

Results

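The comparison set the 4 fetal germ cell libraries furthest along the switch from pluripotency to meiosis against the 4 least far along, 8 of the 10 libraries in all. Each library was ranked by its mean log2 CPM (read counts divided by library size, scaled between libraries) over 40 meiotic recombination genes minus that over 34 genes of pluripotency and early germ cells. The advanced group held Taf4b-deficient replicate 2 and Taf4b-heterozygous replicates 2, 3 and 4. The less advanced group held replicates 3 and 4 of the Taf4b-deficient genotype, replicate 1 of the Taf4b-heterozygous one and replicate 1 of the Taf4b-wildtype one. Where values of a gene are listed, the libraries of each group follow in these orders. Because expression itself chose the groups, every difference between them below is a description with no test.

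Per the labels, all libraries came from female mouse fetuses of strain C57BL/6 at E14.5 (embryonic days) that carried 2 copies of an Oct4-EGFP reporter, a green fluorescent protein under the control of Pou5f1 (Oct4). Parents were heterozygous for the Taf4b deficiency, live cells positive for the fluorescence were sorted from trypsin-digested gonads, and bulk RNA was sequenced. The series held 4 deficient, 4 heterozygous and 2 wildtype libraries, and the labels describe the deficient genotype as infertile. Taf4b encodes a subunit of the general transcription factor TFIID that is enriched in germ cells. The labels do not say which part of Taf4b is missing, whether each library is a separate animal, or how many gonads went into one, so the p-values given for genotype measure the spread between these samples. The sort selected cells on a reporter of a pluripotency gene that is also in the ranking list.

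Female germ cells of the mouse leave mitotic proliferation around this age and enter meiosis in response to retinoic acid and BMP signals. STRA8 and its partner MEIOSIN then switch on genes for the chromosome axis, for double-strand breaks and their repair, and for the attachment of telomeres to the nuclear envelope, while the network of POU5F1, NANOG and SOX2 is shut down. Fetal ovaries do this unevenly between cells, so a library of sorted cells holds a mixture. In such bulk RNA a larger share of meiotic cells and more meiotic RNA per cell cannot be told apart.

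The ranking score was 1.38 in advanced deficient replicate 2 and 2.23, 1.84 and 1.86 in advanced heterozygous replicates 2 to 4. Among the less advanced libraries it was -1.14 in deficient replicate 3, 0.14 in deficient replicate 4, -1.19 in the heterozygous library and 0.26 in the wildtype library. The 2 libraries that fell between the groups were deficient replicate 1 at 0.51 and wildtype replicate 2 at 0.66. The library just inside the advanced group was thus deficient replicate 2 and the one just inside the less advanced group wildtype replicate 1.

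**Figure D1:**
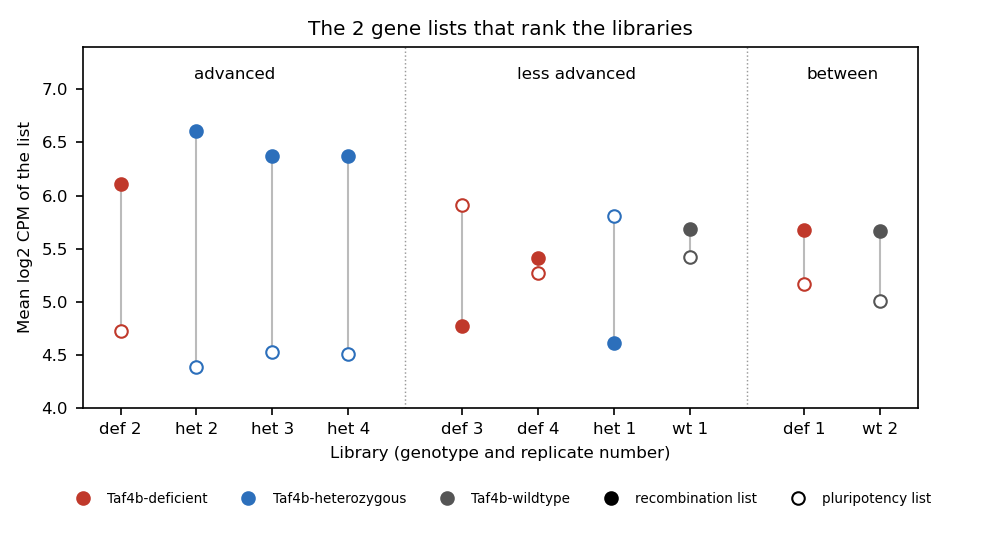
Mean log2 CPM of the recombination list (filled) and of the pluripotency list (open) in each library, with colours for genotype. In the 4 advanced libraries the recombination list lies above the pluripotency list, and deficient replicate 3 and heterozygous replicate 1 show the opposite order.

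Of the 8 markers that define the label, all of them members of the ranking lists, 7 separated the groups. Mei1, needed for double-strand breaks, averaged 78.0 ± 26.7 CPM in advanced and 12.0 ± 12.7 CPM in less advanced libraries (SD, n = 4 each), and Nanog averaged 17.2 ± 3.62 CPM in advanced and 70.5 ± 27.2 CPM in less advanced libraries. Sox2 did not follow the label, with 29.3, 26.0, 27.8 and 27.0 CPM in the advanced libraries against 39.5 and 44.2 CPM in the less advanced deficient libraries, 66.8 CPM in the less advanced heterozygous one and 18.1 CPM in the less advanced wildtype one. The advanced values of Sox2 lay close together and above that of wildtype replicate 1. Dazl, an RNA-binding protein that licenses germ cells for meiosis and marks germ cells generally, averaged 0.10 more on the log2 scale in advanced libraries.

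Library totals ran from 28949924 to 44166320 reads, and 2 of the 3 litter dates held libraries of both groups. The January litters held an advanced deficient, an advanced heterozygous and a less advanced wildtype library, and the March 7 litters held advanced heterozygous replicates 2 and 3 with less advanced deficient replicate 4 and heterozygous replicate 1. The March 1 litters held 1 library of the comparison, a less advanced one, and gave no value. Among deficient libraries the advanced one came from January and both less advanced ones from March, so stage and litter date cannot be told apart within that genotype. Gm23935, a gene model that can collect ribosomal RNA reads, stood at 454 CPM in advanced deficient replicate 2, 87.4 CPM in advanced heterozygous replicate 3 and 141 CPM in less advanced deficient replicate 4, against 4146 CPM or more in each of the other 7 libraries. These 3 libraries stood apart in a way that crosses the stage groups, and counts without them are given beside the totals. Summed markers of pregranulosa cells ran from 35.1 to 51.4 CPM in advanced and from 23.7 to 48.0 CPM in less advanced libraries, and those of macrophages from 9.67 to 24.6 CPM and from 7.08 to 26.1 CPM in the same order. The macrophage sums followed genotype more than stage, as given with the genotype test below. Both ranges overlapped between the stages, and both are small beside the 3818 to 4147 CPM of the 3 germ cell markers outside the ranking.

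A gene was called set apart when all 4 advanced libraries lay on one side of all 4 less advanced ones and the group means differed by at least 1 on the log2 CPM scale, which is 2-fold. Of 20317 genes tested, 1012 (4.98%) were set apart higher in advanced libraries and 576 (2.84%) lower, together 1588 (7.82%), so 63.7% of them stood higher. Without a minimum difference, 4368 genes (21.5%) did not overlap between the groups. The median over all tested genes was 0.03. Outside the ranking lists 992 genes were higher and 557 lower, and 145 of all set-apart genes were at least 4-fold higher and 58 at least 4-fold lower. Without the 3 libraries low in ribosomal RNA-like reads 2475 genes were higher and 1215 lower, which included 991 and 543 of the original ones. Leaving out libraries cannot make separate groups overlap, and an original gene is lost only if its mean difference falls below 2-fold. The shared counts are therefore nearly fixed by the definition. With the deposited TPM (length-scaled transcript abundance) in place of counts the split was more one-sided, at 1175 higher and 380 lower with a pseudocount of 0.1 (75.6% higher) and 622 and 172 with a pseudocount of 1 (78.3% higher). Over the 992 higher genes the median difference was 1.39 over the 8 libraries, 0.91 within the January litters and 1.46 within March 7. Over the 557 lower genes it was -1.31, -1.02 and -1.38 in the same order. The libraries of each date are among those that chose the genes. The sign within a date is therefore fixed by the definition, and only the size is not.

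The genes with the largest higher levels outside the ranking lists combined germ cell genes with genes little discussed in meiosis. Lypd4, a membrane-anchored protein known from sperm, had 52.8, 78.7, 67.9 and 54.3 CPM in advanced deficient replicate 2 and heterozygous replicates 2 to 4, against 2.30 and 13.0 CPM in the less advanced deficient libraries, 1.34 CPM in the less advanced heterozygous one and 23.8 CPM in the less advanced wildtype one. The groups did not overlap, and the difference was 3.47 on the log2 scale. Dmrtc2, a DM-domain factor needed in male meiosis, averaged 152 ± 47.1 CPM in advanced and 30.0 ± 22.9 CPM in less advanced libraries (SD, n = 4 each). Lypd4 (chromosome 7, 24864620 to 24869941, minus strand of GRCm38) and Dmrtc2 (chromosome 7, 24870057 to 24877651, plus strand) are neighbours that start 116 bases apart and point away from each other. Among 1160 tested pairs of such head-to-head genes within 1000 bases, 133 had a member set apart higher, and in 14 of these both were. Of all tested genes 4.98% were set apart higher. Several of the 14 pairs join a protein-coding gene to a noncoding one. A member was set apart lower in 21 pairs, and both were in 2. No pair had 1 member higher and the other lower, but with so few lower members this count shows little.

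Others of the 15 genes with the largest differences were Spdya and Majin of the telomere complex, Taf7l, Figla, the sphingolipid transporter gene Spns2, the small GTPase gene Rab39, Nrip3 and Psd. Nxf2, an RNA export factor, had 31.2 CPM in advanced deficient replicate 2 and 13.6, 14.9 and 28.5 CPM in the heterozygous ones, against 1.74, 4.80, 1.08 and 12.7 CPM in the less advanced libraries. Wildtype replicate 1 came close to the lowest advanced value, so the separation of Nxf2 was narrow there. Nxf2 and Magee1 lie on the X chromosome, which is taken up below.

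Stretches before the RefSeq start of 4 set-apart genes outside the ranking lists are shown because each holds the letters CNCCTCAG. This sequence is known from STRA8 binding in mouse germ cells. They are the 100 bases before the RefSeq gene start (GRCm38.p6), read in the direction of the gene, with the matching letters in capitals on either strand. Lypd4 is at chr7:24869692-24869791 (minus strand), Figla at chr6:86017091-86017190 (plus strand), Inca1 at chr11:70700156-70700255 (minus strand) and Ugt8a at chr3:125938653-125938752 (minus strand).
Lypd4: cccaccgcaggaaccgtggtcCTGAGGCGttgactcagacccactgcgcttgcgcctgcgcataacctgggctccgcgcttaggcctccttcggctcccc
Figla: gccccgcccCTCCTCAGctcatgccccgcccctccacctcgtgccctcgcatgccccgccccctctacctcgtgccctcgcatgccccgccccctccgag
Inca1: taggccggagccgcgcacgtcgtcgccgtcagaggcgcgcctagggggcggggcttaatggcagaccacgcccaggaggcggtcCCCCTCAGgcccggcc
Ugt8a: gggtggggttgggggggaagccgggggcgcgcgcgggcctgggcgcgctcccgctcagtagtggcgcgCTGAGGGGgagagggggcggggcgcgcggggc
The RefSeq start is the GENCODE start of Inca1, and lies 33 bases from it for Ugt8a, 250 for Lypd4 and 1020 for Figla. For Lypd4 and Figla the RefSeq start lies downstream, so their stretches fall inside the gene by the GENCODE coordinates.

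Over the 300-base windows that RefSeq gives around gene starts, CNCCTCAG or its other strand CTGAGGNG was present in 88 of 513 protein-coding genes set apart higher and outside the ranking lists (17.2%). It was present in 23 of 319 set apart lower (7.21%) and in 1091 of all 11569 tested protein-coding genes with a window (9.43%). Windows were found for 513 of 683 higher and 319 of 437 lower genes. CCAAT, the letters bound by NF-Y, was present in 40.4% of higher, 42.6% of lower and 39.0% of all windows, and the E-box CACGTG in 8.58%, 11.0% and 9.89% in the same order. GCGGGAA, which resembles sites of E2F factors, was in 7.99% of higher, 2.82% of lower and 8.39% of all windows. Among the recombination genes of the ranking, CNCCTCAG was present in 3 of 28 windows (10.7%), near the share of all windows. GCGGGAA was present in 9 of those 28 (32.1%). Windows of higher genes held a median of 17 CG pairs, those of lower genes 10 and all windows 20, so the lower genes also differed in base composition. A match is a description of the letters and not a binding site. Inca1, an inhibitor of CDK2 with cyclin A1, averaged 2.41 more on the log2 scale in advanced libraries, and Ugt8a, an enzyme of galactolipid synthesis, 2.15 more.

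Regulators of meiotic entry stood higher in most cases but seldom by 2-fold. Of 14 tested, 11 had a difference above 0 and 2 were set apart higher (14.3%, against 4.98% of all genes). Their median was 0.41 on the log2 scale against 0.03 over all genes. Stra8 had 991, 939, 822 and 730 CPM in advanced deficient replicate 2 and heterozygous replicates 2 to 4, against 237 and 606 CPM in less advanced deficient, 239 CPM in less advanced heterozygous and 588 CPM in less advanced wildtype libraries. The groups did not overlap, and the less advanced libraries split into a pair near 240 CPM and a pair near 600 CPM. Within the January litters the difference of Stra8 was 0.53 and within March 7 it was 1.21. Meioc, which protects meiotic transcripts and holds back mitotic ones, averaged 561 ± 107 CPM in advanced and 221 ± 109 CPM in less advanced libraries (SD, n = 4 each). Gm4969 (Meiosin) had 151, 453, 189 and 386 CPM in the advanced against 46.0, 77.8, 37.7 and 168 CPM in the less advanced libraries, so its groups overlapped through deficient replicate 2 and wildtype replicate 1. Rec8, the meiotic cohesin, also overlapped, with 192 to 299 CPM in advanced and 142 to 224 CPM in less advanced libraries.

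The structural genes of the meiotic chromosome, none of which entered the ranking, followed the score more closely. Of 16 genes for the axis, cohesin and the synaptonemal complex, 8 (50%) were set apart higher, against 4.98% of all genes, and none lower. A difference above 0 was seen in 15, and the median was 1.09. Sycp3, the main lateral element protein, had 248, 232, 286 and 200 CPM in the advanced against 56.8, 112, 39.1 and 142 CPM in the less advanced libraries. Tex12, of the central element, stood 1.89 higher on the log2 scale, Sycp2 1.64 and Syce3 1.65. Rad21l, a meiotic cohesin, differed by 3.15 but overlapped, at 5.94 CPM in advanced heterozygous replicate 3 and 9.84 CPM in less advanced wildtype replicate 1. The 6 genes of telomere attachment had the highest median, 2.05, with 4 set apart higher (66.7%). Majin had 52.7, 86.3, 71.0 and 61.3 CPM in the advanced against 7.62, 21.2, 4.48 and 26.4 CPM in the less advanced libraries, and its partner Terb1 and the CDK2 activator Spdya differed by 2.38 and 2.63. Within the January litters, where the less advanced library was wildtype replicate 1, the medians were 0.64 for the axis list and 0.84 for the telomere list, and within March 7 they were 1.18 and 2.40. Sun1, the inner-membrane protein that telomeres bind, differed by 0.18, with 187 CPM in deficient replicate 2 and 250 to 291 CPM in the advanced heterozygous libraries against 202 to 231 CPM in the less advanced ones.

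Germline genes outside recombination stood higher in smaller numbers. Of 21 genes known to be silenced by promoter methylation until germ cells are demethylated, 20 had a difference above 0. Within this list 5 (23.8%) were set apart higher, against 4.98% of all genes, and the median was 0.68. Among them Taf7l, an X-linked TFIID subunit of germ cells, had 368, 480, 350 and 348 CPM in the advanced against 44.1, 104, 22.5 and 178 CPM in the less advanced libraries. Tex101, a surface protein of germ cells, averaged 529 ± 85.6 CPM in advanced and 158 ± 95.8 CPM in less advanced libraries (SD, n = 4 each), and Slc25a31, a testis-type ATP carrier, stood 1.21 higher. Of 19 piRNA pathway genes 3 (15.8%) were set apart higher, namely Gtsf1, Tdrd9 and Piwil1, with a list median of 0.53. Among 14 oocyte differentiation factors 2 (14.3%) were set apart higher, Figla and Sohlh1. Figla, which drives genes of the later egg coat, had 26.5, 38.5, 34.7 and 33.6 CPM in the advanced against 2.99, 8.96, 2.30 and 16.3 CPM in the less advanced libraries. Sohlh1 stayed at or below 2.25 CPM in every library of the comparison, and the list median was 0.36. Among 18 TFIID genes 2 (11.1%) were set apart higher, both X-linked, Taf7l by 2.55 and Taf9b by 1.66.

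**Figure D2:**
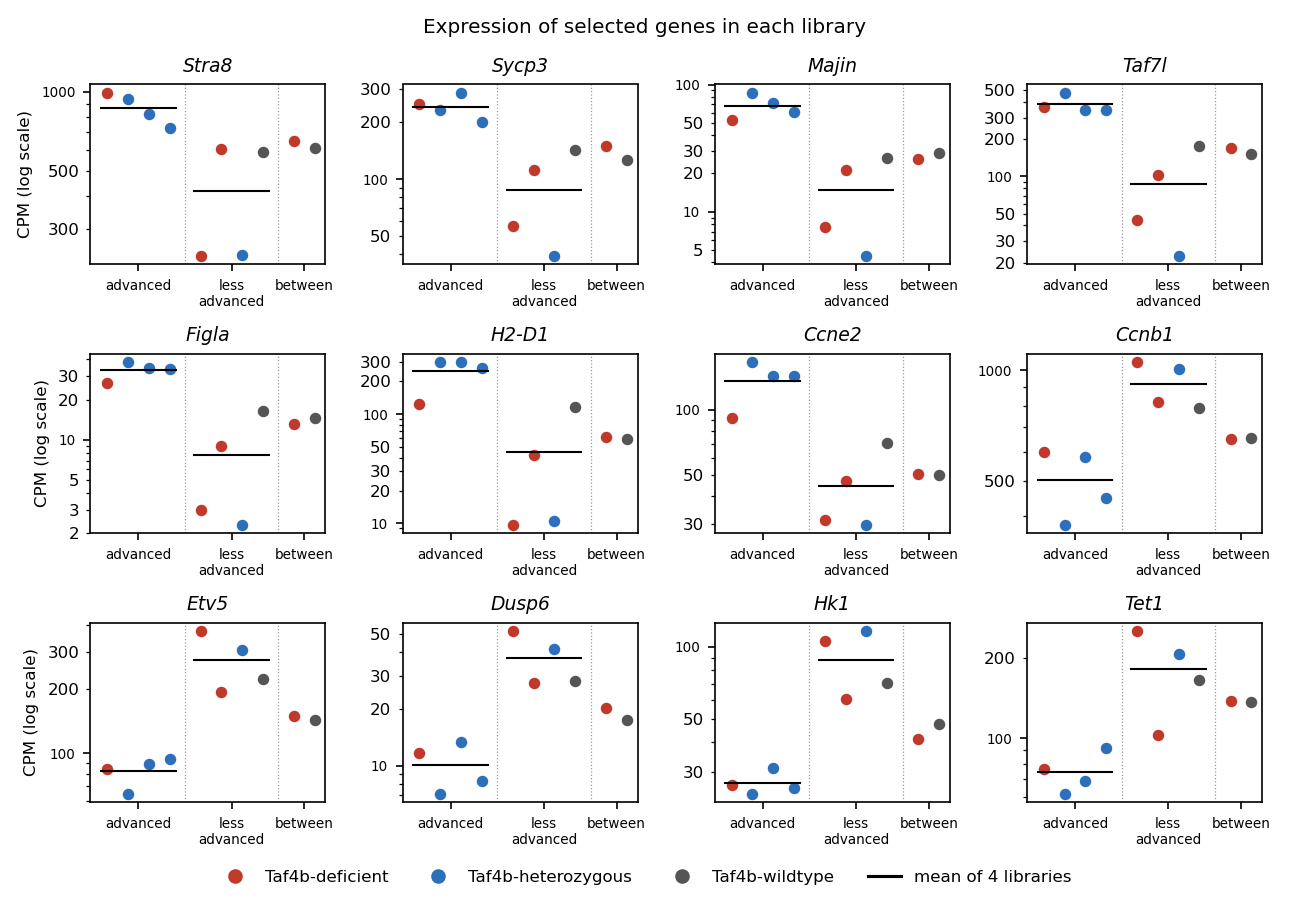
CPM on a log scale for 12 named genes in each library, coloured by genotype, with a bar at the mean of each group of 4. For the 11 genes other than Ccnb1 the group means differ by more than 2-fold, and wildtype replicate 1 and deficient replicate 4 often lie nearest to the advanced libraries.

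Genes of antigen presentation were among the largest differences outside the germ cell lists. H2-D1, an MHC class I heavy chain, had 124, 303, 299 and 262 CPM in advanced deficient replicate 2 and heterozygous replicates 2 to 4, against 9.66 and 42.6 CPM in less advanced deficient, 10.5 CPM in less advanced heterozygous and 116 CPM in less advanced wildtype libraries. The groups nearly met, since deficient replicate 2 was only just above wildtype replicate 1. H2-K1 differed by 2.69 and the class II gene H2-Ab1 by 3.04, with the same near meeting in wildtype replicate 1. A list of MHC class I and II genes was made after these values were seen, so its share is a description only. Of its 19 tested members 7 (36.8%) were set apart higher, against 4.98% of all genes. The median was 1.16, but 0.21 within the January litters and 1.41 within March 7. B2m, the light chain of class I, differed by 0.69, below the 2-fold minimum, and its groups nearly met. These heavy chain genes are near-identical copies, so reads may be divided between them. Macrophage markers were low throughout, and their sums overlapped between the groups. The marker Ptprc averaged 0.30 CPM in advanced and 0.37 CPM in less advanced libraries. Their list median was -0.19 over the 8 libraries, but 0.87 within heterozygous and 0.24 within deficient libraries, the direction of the MHC genes. The part of macrophages in the MHC difference was not tested.

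The genes with the largest lower levels in advanced libraries included several of receptor signalling. Etv5, an ETS factor induced by FGF signals, had 84.2, 64.3, 89.2 and 93.6 CPM in the advanced against 378, 194, 305 and 225 CPM in the less advanced libraries. Dusp6, a phosphatase that restrains ERK, averaged 10.1 ± 2.92 CPM in advanced and 37.1 ± 11.7 CPM in less advanced libraries (SD, n = 4 each). Dusp4 and Etv4 stood lower by 1.92 and 1.91 on the log2 scale. A list of ERK targets and feedback genes was made after these values were seen, so its shares are descriptions only. Of its 15 members 6 (40%) were set apart lower and 1 (6.67%) higher, against 2.84% and 4.98% of all genes. The median was -1.06, and it was -0.89 within the January litters and -0.94 within March 7. Other genes at the head of the lower side were the zinc finger gene Klf17, the KH-domain gene Khdc1a, Otog, Umodl1, Phactr1, Cyp1b1 and Pipox. Irf8, Siglecf and Ptpn22, best known from leukocytes, also stood lower, by 2.17, 2.06 and 1.99. Irf8 had 4.90, 3.64, 4.93 and 3.25 CPM in the advanced against 28.2, 12.8, 26.0 and 12.9 CPM in the less advanced libraries, while the summed macrophage markers did not separate the groups. Enpp3, an ectonucleotidase, averaged 15.4 ± 3.67 CPM in advanced and 63.6 ± 20.8 CPM in less advanced libraries.

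Pecam1, an adhesion molecule of endothelium that early germ cells also carry, had 89.9, 64.8, 91.9 and 82.3 CPM in the advanced against 373, 207, 380 and 222 CPM in the less advanced libraries. It made up nearly the whole endothelium list, whose 4 tested markers summed to 66.8 to 94.2 CPM in advanced and 213 to 386 CPM in less advanced libraries. The endothelial receptor Kdr averaged 0.50 CPM in advanced and 0.56 CPM in less advanced libraries, and Tek 0.83 and 1.31 CPM in the same order. Cldn5, a tight junction gene of endothelium, was set apart lower as well, at 1.52 CPM in advanced and 4.12 CPM in less advanced libraries on average. The part of endothelial cells in the Pecam1 difference was not tested.

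Among the metabolic lists glycolysis had the most genes set apart, 4 of 22 lower (18.2%, against 2.84% of all genes) and none higher. Its median was -0.62, 19 genes had a difference below 0, and the medians were -0.45 within the January litters and -0.71 within March 7. Hk1, the hexokinase, had 26.4, 24.1, 31.0 and 25.6 CPM in the advanced against 106, 60.6, 117 and 70.4 CPM in the less advanced libraries. Pfkp, the platelet-type phosphofructokinase, averaged 27.6 ± 4.11 CPM in advanced and 89.1 ± 27.5 CPM in less advanced libraries (SD, n = 4 each), and Eno1 and Pgam1 each stood 1.06 lower. Pfkfb3, which makes the activator of phosphofructokinase and is not in the list, had 9.80, 7.46, 8.43 and 13.2 CPM in the advanced against 46.6, 23.9, 45.4 and 32.1 CPM in the less advanced libraries. Of 23 cholesterol synthesis genes none was set apart, although 19 had a difference below 0 and the median was -0.53.

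Mitotic genes differed less than meiotic ones. Of 50 genes of mitotic G2 and M phase, 45 had a difference below 0 with a median of -0.44. Among the 50, 28 (56%) did not overlap between the groups, against 21.5% of all genes. Of these only Aurkb, the mitotic kinase of centromeres, reached the 2-fold minimum, at 36.5 ± 6.56 CPM in advanced and 72.4 ± 5.99 CPM in less advanced libraries (SD, n = 4 each). Ccnb1, the mitotic cyclin, had 598, 378, 579 and 447 CPM in the advanced against 1055, 819, 1005 and 789 CPM in the less advanced libraries, a difference of -0.89 without overlap. Of 49 DNA replication genes 37 were below 0 and the median was -0.23. Gins3, of the replicative helicase, was the only one set apart (2.04%, below the 4.98% of all genes) and stood higher, by 1.19. Mcm7 and Mcm10 stood lower by 0.81 and 0.82. Among 21 cyclins and inhibitors, the 3 set apart were all higher (14.3%, against 4.98% of all genes). Ccnb3, a cyclin used in oocyte meiosis, averaged 38.4 ± 7.32 CPM in advanced and 9.90 ± 6.52 CPM in less advanced libraries, and Ccne2 stood 1.67 and Cdkn2c 1.16 higher on the log2 scale. Ccnd1 differed by 0.85 without overlap, below the 2-fold minimum.

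Chromatin lists differed little as wholes. The Polycomb complexes PRC1.6, which guards meiotic genes, and PRC2 had no member set apart among 15 and 12, with medians of -0.02 and -0.14. Among 16 genes of DNA methylation and its removal, 1 was set apart lower, Tet1, and 1 higher, Tet3. These shares (6.25% each) compare with 2.84% lower and 4.98% higher of all genes, and single genes are no result about the list. Tet1, which oxidises methylcytosine and is required for meiotic genes in mouse oocytes, had 76.3, 61.4, 68.8 and 91.4 CPM in the advanced against 254, 103, 207 and 166 CPM in the less advanced libraries. Tet3 had 8.73, 9.91, 5.68 and 12.7 CPM in the advanced against 3.78, 4.48, 3.67 and 5.55 CPM in the less advanced libraries, so that heterozygous replicate 3 and wildtype replicate 1 nearly met. Dnmt1, the maintenance methyltransferase, differed by -0.33 and its recruiter Uhrf1 by 0.95, just below the 2-fold minimum and without overlap. Kdm4d, a demethylase of H3K9 known from testis, stood 2.28 higher and was the only one set apart of 15 genes in the H3K9 list. That share of 6.67% is near the 4.98% of all genes.

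The X chromosome held more higher genes than the autosomes. Of 596 tested protein-coding X-linked genes outside the ranking lists, 63 were set apart higher (10.6%) and 10 lower (1.68%), against 620 higher (4.38%) and 427 lower (3.02%) of 14154 autosomal ones. The X-linked median was 0.15, against 0.01 on autosomes, and was 0.07 within the January litters and 0.17 within March 7. Besides Taf7l, Taf9b, Nxf2, Magee1 and Ccnb3, the X-linked gene Tro, of the MAGE family, stood 2.31 higher. Shares also varied between transcript types. Among antisense genes 70 of 835 (8.38%) and among bidirectional-promoter RNAs 13 of 115 (11.3%) were set apart higher, against 703 of 14843 protein-coding genes (4.74%). The share was 7.42% for lincRNAs, which were lower almost as often (7.06%), 3.23% for sense intronic RNAs and 2.6% for processed pseudogenes, and none of 91 snoRNAs was higher. The strand setting of the counting was not given in the sources used here, so reads of antisense genes and their partners may not be told apart.

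**Figure D3:**
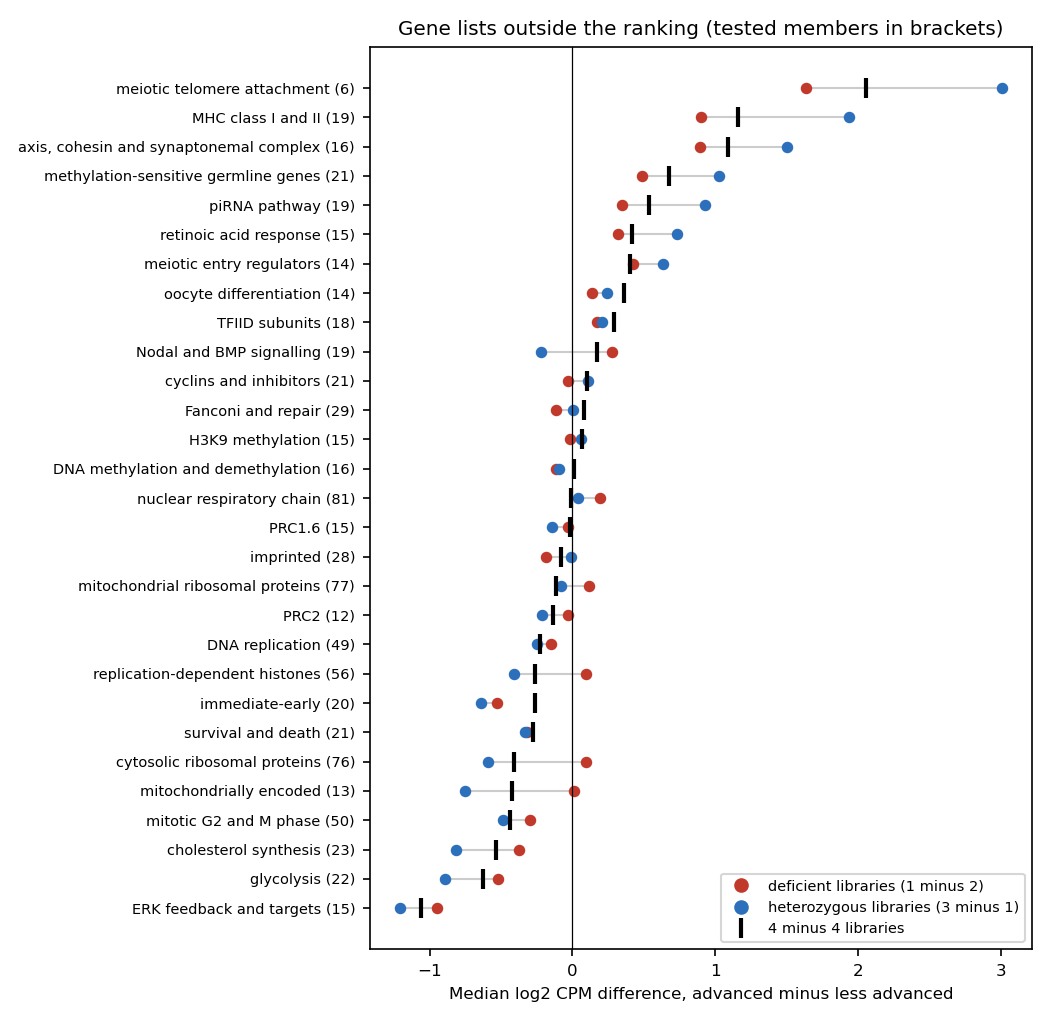
Median log2 CPM difference, advanced minus less advanced, for each gene list outside the ranking, over all 8 libraries (bar), within deficient libraries (red) and within heterozygous libraries (blue). Meiotic lists lie right of 0 and glycolysis, cholesterol synthesis and ERK targets left of it in both genotypes. Cytosolic ribosomal proteins lie on opposite sides, with a deficient median that turns below 0 without deficient replicate 4. Nodal and BMP genes also lie on opposite sides, with or without that library.

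The deficient and heterozygous libraries could be set against each other because each genotype had both stages and the contrasts share no library. The deficient contrast was replicate 2 minus the mean of replicates 3 and 4, and the heterozygous one was the mean of replicates 2, 3 and 4 minus replicate 1. Over 10835 genes outside the ranking lists with a mean of at least 5 CPM, 8464 (78.1%) had the same sign in both. The correlation across these genes, which are not independent replicates, was 0.807 (Pearson) and 0.757 (Spearman). Both contrasts were cut by the same score, and same-sign counts among set-apart genes are fixed by that definition, so none is given for them. At least 2-fold higher levels were seen in 294 genes in deficient and 800 in heterozygous libraries, and 246 were shared, 83.7% of the deficient and 30.8% of the heterozygous set. At least 2-fold lower levels were seen in 229 genes in deficient and 555 in heterozygous libraries with 186 shared, 81.2% and 33.5% of each set. The heterozygous difference was the larger one in 70.9% of genes. The score itself spans more in heterozygous libraries, and without deficient replicate 3, which leaves replicate 4 alone as the less advanced deficient library, the same-sign share was 67.9% and the Pearson correlation 0.572.

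**Figure D4:**
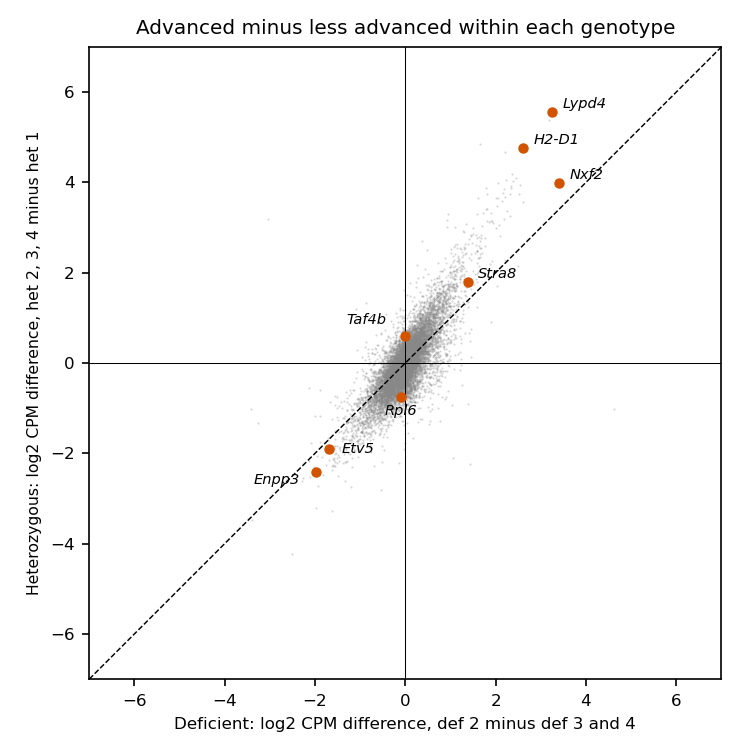
Log2 CPM difference between advanced and less advanced libraries within deficient (x) and heterozygous (y) germ cells for 10835 genes, 1 point each, with a dashed line of equality. Points follow a line steeper than equality, and Rpl6 and Taf4b differ mainly along the heterozygous axis.

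Some lists had different medians in the 2 genotype contrasts. For cytosolic ribosomal proteins, mitochondrially encoded genes and replication-dependent histones the sign in deficient libraries rested on replicate 4. The median over 76 cytosolic ribosomal protein genes was 0.10 in the deficient and -0.59 in the heterozygous contrast. That of 13 mitochondrially encoded genes was 0.01 in the deficient and -0.75 in the heterozygous contrast, and that of 56 replication-dependent histone genes was 0.10 and -0.41 in the same order. Without deficient replicate 4 the deficient medians were -0.11, -0.21 and -0.08 for the ribosomal, mitochondrial and histone lists, below 0 as in heterozygous libraries. Without heterozygous replicate 3 the mitochondrial median was -0.27 in the heterozygous contrast. Other lists kept opposite signs without deficient replicate 4. The Nodal and BMP median was 0.28 in the deficient contrast (0.30 without replicate 4) and -0.22 in the heterozygous one. That of mitochondrial ribosomal proteins was 0.12 (0.09) and -0.08 in the same order, and that of pregranulosa markers -0.49 (-0.30) and 0.68. The difference between the genotypes was not tested for any of these lists. None of the ribosomal or mitochondrial genes was set apart over the 8 libraries. Rpl6 had 445 CPM in advanced deficient replicate 2 and 233, 252 and 231 CPM in the advanced heterozygous libraries, against 524, 434, 400 and 516 CPM in the less advanced libraries. Mean log2 CPM of the mitochondrial list was 6.15 in advanced heterozygous replicate 3, against 7.24 or more in every other library. Heterozygous replicate 3 and deficient replicates 2 and 4 are the libraries low in ribosomal RNA-like reads, and the part of that difference in these lists was not tested.

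Pairs of libraries followed stage only in part. Heterozygous replicates 2 and 4, both advanced and from different litter dates, had 39 of the 10835 genes at least 2-fold apart (0.36%). Advanced deficient replicate 2 differed from advanced heterozygous replicates 2, 3 and 4 in 492, 361 and 359 genes, fewer than the 736 and 783 by which heterozygous replicate 3 differed from its own genotype. Less advanced deficient replicate 3 and heterozygous replicate 1 were 430 genes apart (3.97%), and deficient replicates 3 and 4 were 974 apart (8.99%). Between the stages, deficient replicate 3 and heterozygous replicate 3 differed in 2298 genes (21.2%). Deficient replicates 2 and 4 belong to different stages yet differed in 319 genes (2.94%), and both are low in ribosomal RNA-like reads. Less advanced wildtype replicate 1 was 888 genes from advanced deficient replicate 2, fewer than the 948 and 970 that separated it from less advanced deficient replicate 4 and heterozygous replicate 1. It was nearer to less advanced deficient replicate 3, at 446 genes (4.12%), and further from advanced heterozygous replicates 2, 3 and 4, at 1464, 1608 and 1102. Deficient replicate 4 and heterozygous replicate 3, also both low in ribosomal RNA-like reads, differed in 517 genes (4.77%).

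**Figure D5:**
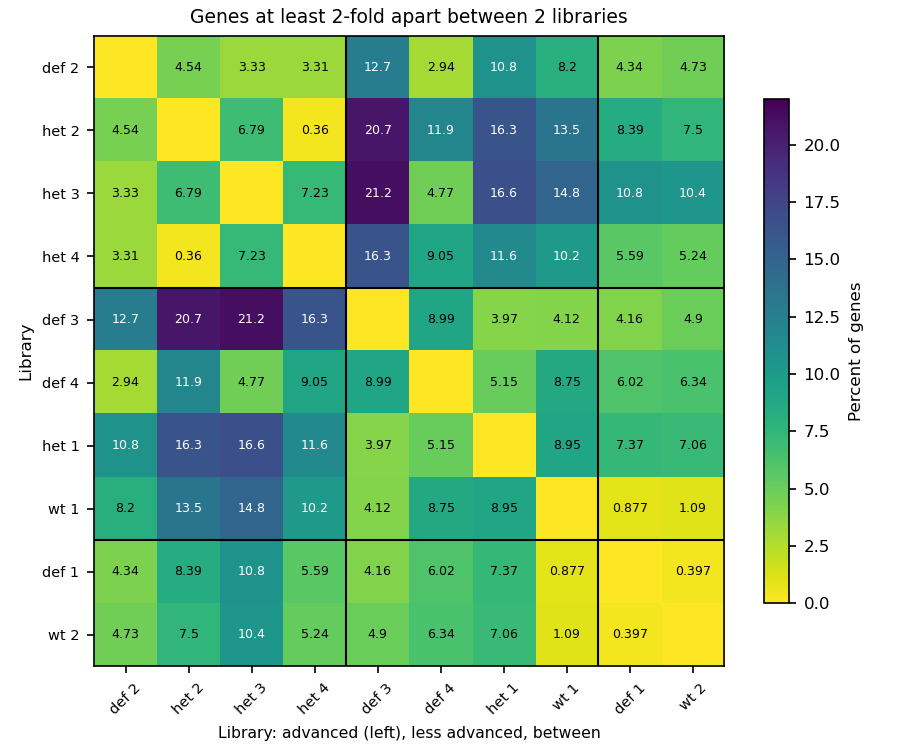
Percent of 10835 genes at least 2-fold apart for each pair of libraries, with advanced, less advanced and intermediate libraries in blocks. The 2 darkest cells, at 21.2% and 20.7%, pair advanced heterozygous replicates 3 and 2 with deficient replicate 3, and deficient replicates 2 and 4 lie 2.94% apart.

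Within the set-apart genes the groups cannot overlap by definition, so only the order inside each group is not fixed. That order was close to that of the score, but deficient replicate 3 lay further from the advanced group than heterozygous replicate 1. Of the 992 higher genes, deficient replicate 2 was the advanced library nearest to the less advanced group in 579 (58.4%) and heterozygous replicate 2 in 42 (4.23%). Of the 557 lower genes these shares were 40.6% for deficient replicate 2 and 6.64% for heterozygous replicate 2. On the other side, wildtype replicate 1 was nearest to the advanced group in 49.1% of higher genes and deficient replicate 4 in 54.6% of lower genes. The libraries left out of the groups lay between the group means in most cases, deficient replicate 1 in 80.3% of higher and 90.5% of lower genes and wildtype replicate 2 in 84.0% and 90.5%.

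Genotype comes from the labels and not from the score, so it could be tested. The targeted gene checked the labels first. Taf4b (chromosome 18) had 62.1 CPM in advanced deficient replicate 2 and 64.9 and 60.1 CPM in less advanced deficient replicates 3 and 4, against 223, 195 and 234 CPM in advanced heterozygous libraries, 144 CPM in less advanced heterozygous replicate 1 and 152 CPM in wildtype replicate 1. Deficient levels were alike in both stages and below every other library. Its stage difference was -0.01 in deficient and 0.59 in heterozygous libraries. With stage as a term and 8 libraries, Taf4b was estimated 1.52 lower on the log2 scale in deficient than in heterozygous libraries (log2 fold change -1.52, SE 0.18, edgeR adjusted p = 0.241), lower in 3 of 3 deficient libraries.

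The same edgeR test called no gene between the genotypes (0 of 20317, 0%) at an adjusted p under 0.05, and 1137 genes (5.6%) had an unadjusted p under 0.05. DESeq2 with the same terms called 28 genes, with Taf4b at an adjusted p of 1.24e-07, and limma voom called 3, namely Taf4b, Gm49450 and Gm8797. Gm49450 stood at 9.73, 10.3 and 10.1 CPM in deficient libraries and from 2.93 to 3.64 CPM in heterozygous ones, but at 12.4 CPM in wildtype replicate 1, above the deficient level. Counts of genes with an unadjusted p under 0.05 for genotype varied between lists, against 5.6% of all genes. There were 0 of 16 in the axis list, 0 of 6 in the telomere list, 1 of 22 in glycolysis, 2 of 50 in mitotic G2 and M phase and 2 of 19 (10.5%) in the piRNA list. Larger shares were seen for Nodal and BMP genes (4 of 19, 21.1%), imprinted genes (5 of 28, 17.9%) and PRC2 (2 of 12, 16.7%). Mitochondrial ribosomal proteins (12 of 77, 15.6%), replication-dependent histones (8 of 56, 14.3%) and Fanconi and repair genes (4 of 29, 13.8%) followed. The shares were 12.5% (2 of 16) for DNA methylation and its removal and 12.3% (10 of 81) for the respiratory chain. The largest was that of the macrophage markers, 7 of 12 (58.3%), with a median log2 fold change of 1.51. Their sums were 24.6 CPM in advanced deficient replicate 2 and 26.1 and 18.6 CPM in less advanced deficient replicates 3 and 4, against 7.08 to 15.7 CPM in heterozygous libraries and 18.7 CPM in wildtype replicate 1. All 3 deficient libraries thus lay above all 4 heterozygous ones, no macrophage marker passed the adjusted threshold, and the part of these cells in the genotype differences was not tested. With stage as a term, the median genotype log2 fold change was 0.13 in the axis list, 0.06 in the telomere list, 0.08 in the piRNA list and -0.02 in glycolysis. The term knows only advanced and less advanced and does not make stage equal. The score was 1.38 in the advanced deficient library and 1.84 to 2.23 in the advanced heterozygous ones. It also varied within the groups, so few low p-values in the meiotic lists say little. The piRNA gene Mael had an estimate of 0.39 (SE 0.15, edgeR adjusted p = 0.853), higher in advanced deficient replicate 2 at 563 CPM than in the advanced heterozygous libraries at 455 to 523 CPM. Ccnd1 had an estimate of 0.82 (SE 0.18, edgeR adjusted p = 0.853). A p that misses the threshold with 3 deficient and 4 heterozygous libraries does not show that the genotypes are alike at equal stage.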

How the data were processed

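Per the submitters' processing notes the authors used Trim Galore 0.5.0 for trimming, HISAT2 2.1.0 with the GRCm38 genome for alignment, and SAMtools 1.9. The same notes name featureCounts of Subread 1.6.2, from which the deposited read counts per gene stem, and StringTie 1.3.3b, from which the deposited TPM stem. Tool settings, strand option and annotation version were not stated in the sources used here, and a deposited table of DESeq2 output was not used. All 55536 gene identifiers of the count table were found in the GENCODE M21 annotation of GRCm38. Genes were kept by filterByExpr with genotype as the group (20317 genes), scaled by TMM, and turned into log2 CPM with a prior count of 2 in edgeR 4.0.16 under R 4.3.3. CPM values printed are scaled by the TMM factors. Genotype was tested over the 8 libraries with edgeR's quasi-likelihood test (terms for genotype and stage group, Benjamini-Hochberg adjusted p under 0.05). SE is derived from its F statistic. The test was also run on simulated counts. These held no stage difference, so that run does not show how the test behaves on these libraries. DESeq2 1.42.0 and limma 3.58.1 voom were alternatives. The smallest chi-square per degree of freedom between 2 libraries was 10.6, so no library was a copy of another.

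Members, gene lists and tests were chosen with earlier results of these data known. Genes named are the 8 markers, up to 15 per direction with the largest difference among set-apart coding genes with a mean of at least 5 CPM outside the ranking lists, up to 4 per list by absolute difference with a mean of at least 1 CPM, and a set of germ cell genes. Genes named beyond these rules were chosen after their values were seen: B2m, Inca1, Ugt8a, Slc25a31, Mael, Cox4i2, Tro, Sun1, Ptprc, Kdr, Gm49450, Gm8797 and Gm23935. The MHC and ERK lists were likewise chosen with the values known. Promoter windows and sequences are from RefSeq. Replicate numbers shared between genotypes did not pair the libraries. Depth covers counting error only; the lowest total was 28949924 reads.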

Additional observations from a re-analysis of the deposited data

Results flagged for a closer look

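In 272 searches of a gene or list for 1 library far from the other 3 of its stage group, 14 met the criterion (a gap to the nearest library that takes up most of the group's range), and chance alone gives about 1 in 20, which is close to the number found. Taf4b stood at 62.1 CPM in advanced deficient replicate 2 against 195 to 234 CPM in the advanced heterozygous libraries. Gm49450 stood at 9.73 CPM in advanced deficient replicate 2 against 2.93 to 3.04 CPM in the advanced heterozygous libraries, and at 3.64 CPM in less advanced heterozygous replicate 1 against 10.1 to 12.4 CPM in the other less advanced libraries. Rpl6 stood at 445 CPM in advanced deficient replicate 2 against 231 to 252 CPM in the advanced heterozygous libraries.

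Low levels in 1 library low in ribosomal RNA-like reads were seen for Gm23935 itself, 141 CPM in less advanced deficient replicate 4, for the mean log2 CPM of cytosolic ribosomal proteins, 8.09 in that library against 8.46 to 8.52 in the other less advanced libraries, and for that of mitochondrially encoded genes, 6.15 in advanced heterozygous replicate 3 against 7.51 to 7.68. Heterozygous replicate 3 also had the highest mean of the oocyte differentiation list, 1.95, above the other advanced libraries at 1.65 or less. Single high values were Slc25a31 at 638 CPM in advanced heterozygous replicate 2, Kdr at 1.05 CPM in advanced heterozygous replicate 4, the X-linked mean at 3.77 in the same library and Khdc1a at 15.5 CPM in less advanced heterozygous replicate 1. H2-D1 stood at 124 CPM in advanced deficient replicate 2 against 262 to 303 CPM in the advanced heterozygous libraries. The mean of the erythroid list was -3.17 in less advanced deficient replicate 3 against 0.20 to 0.40 in the other less advanced libraries.

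In 3 cases every advanced library moved one way in deficient and the opposite way in heterozygous libraries, and the difference was not tested. Sun1 differed by -0.18 in deficient and 0.39 in heterozygous libraries. The mean log2 CPM of pregranulosa markers differed by -0.43 in deficient and 0.51 in heterozygous libraries, and that of stroma markers by -0.68 in deficient and 0.59 in heterozygous libraries, both at levels of a few CPM.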

How the results depend on the processing

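No set-apart gene named above changed sign under other scaling, filters, a smaller prior count or the deposited TPM. Leaving out libraries cannot change the sign of such a gene, because its groups do not overlap, so those settings do not check it. The size of the set moved. Against 1012 genes higher and 576 lower, the counts were 971 and 607 with DESeq2 size factors, 916 and 646 with upper quartile scaling, 1130 and 498 with library totals, 1175 and 380 with TPM and a pseudocount of 0.1, 622 and 172 with a pseudocount of 1, 1734 and 976 for the 3 highest against the 3 lowest libraries, 2475 and 1215 without the 3 libraries low in ribosomal RNA-like reads, 2161 and 758 within the January litters, 1743 and 1085 within March 7, 2263 and 2105 with no minimum difference, and 145 and 58 with a minimum of 2. Leaving out 1 library at a time gave 925 to 1452 higher and 511 to 911 lower genes, with most of the lower ones, 911, without deficient replicate 4. Fewer libraries make it easier for groups not to overlap. With TPM and a pseudocount of 0.1 the median of all genes shifted to 0.14. Of the genes with the same sign in both genotypes there were 14819 over all tested genes. The genotype test called 169 genes without a filter on low counts, 6 with all 10 libraries and the score as a covariate, 28 with DESeq2 and 3 with limma voom, and Taf4b was then at -1.51 (adjusted p = 1.7e-09), -1.57 (0.0109), -1.50 (1.24e-07) and -1.59 (0.0318), its adjusted p reaching 1 elsewhere; the cause was not tested. Its log2 fold change ran from -1.20 to -1.82 when 1 library was left out. The replicate numbers did not pair the libraries (correlations of deviations between deficient and heterozygous libraries of the same number from -0.42 to 0.38), and with a replicate block 0 genes were called, 225 had an unadjusted p under 0.05, and Taf4b stood at -1.84 (adjusted p = 1). The advanced deficient stage rests on 1 library, and depth limits genes of a few CPM.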

Other observations

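Nodal, a TGF-beta family ligand of early germ cells, stood at 0.47, 0.73, 0.97 and 0.71 CPM in advanced deficient replicate 2 and heterozygous replicates 2 to 4, against 2.40 and 1.88 CPM in less advanced deficient, 2.94 CPM in less advanced heterozygous and 2.11 CPM in less advanced wildtype libraries. Bmp4, a ligand that prepares germ cells, stood 1.55 lower on the log2 scale. Both were set apart lower among 19 Nodal and BMP genes (10.5%, against 2.84% of all genes), whose list median was 0.17. In the respiratory chain the list median was -0.01 over 81 genes, 1 gene was set apart higher, Cox4i2, and 2 (2.47%) lower, Cox8a and Cox7b, against 4.98% higher and 2.84% lower of all genes, so the list did not exceed the background. Cox8a and Cox7b, subunits of cytochrome oxidase, stood lower by 1.14 and 1.03. The X-linked complex I subunit gene Ndufa1 stood 0.89 higher, with 255, 330, 274 and 290 CPM in the advanced against 127, 166, 134 and 200 CPM in the less advanced libraries and no overlap. Of 28 imprinted genes 1 (3.57%) was set apart, a share near that of all genes. It was Usp29, lower, with 2.73, 2.31, 2.51 and 4.70 CPM in the advanced against 12.2, 6.78, 9.58 and 6.34 CPM in the less advanced libraries, and its neighbour Peg3 differed by -1.08 with overlap. Of 20 immediate-early genes, a list that responds to tissue handling, 1 (5%) was set apart lower, Dusp1 by 1.10, against 2.84% of all genes, and a single gene is no result about the list. Rdh10, which makes retinaldehyde, differed by 0.82.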
